A study of Mus musculus with 8 samples.

Results

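Pou5f1 (which encodes OCT4), Sox2, Nanog and Sall4 are transcription factor genes of the circuit that keeps mouse embryonic stem cells pluripotent. OCT4, a POU-domain factor, and SOX2, an HMG-box factor, bind DNA side by side at many enhancers, often at a composite SOX-octamer element, and these sites include ones at their own genes and at Nanog. NANOG, a homeodomain factor, and SALL4, a zinc-finger factor, join them at many of the same regions, and each of the 4 genes is a target of the others. Loss of OCT4 from embryonic stem cells is known to turn them towards trophectoderm, the outer layer of the blastocyst.

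These 4 genes, of 27962 gene names on the array, were represented by every non-control probe that carried one of their symbols, which gave 5 of 41174 probes: 1 each for Pou5f1, Sox2 and Nanog and 2 for Sall4. RNA came from R1 mouse embryonic stem cells grown on gelatin in DMEM with serum replacer. In the LIF group, 4 samples were kept without feeder cells in leukaemia inhibitory factor (LIF), the cytokine that sustains self-renewal through STAT3. The butyrate group was 4 samples grown for 15 passages with 0.2 mM sodium butyrate, an inhibitor of histone deacetylases, and no LIF. Both groups are the same single cell line. Withdrawal of LIF and addition of butyrate therefore came together and cannot be told apart.

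On each of 4 Agilent whole mouse genome arrays, a butyrate sample in Cy5 was set against its same-numbered LIF sample in Cy3. No array had the dyes the other way round, and an effect of dye cannot be told apart from one of treatment. The arrays lay on 1 slide scanned on 1 day. Between 57.9% and 61.2% of non-control spots were well above background in LIF, and between 62.7% and 63.9% in butyrate. Precision is limited by the number of arrays. The replicates are labelled as independent, with no statement of separate derivations, and the p-values cover only their spread, part of which may be technical. In bulk RNA, fewer cells that express a gene and less RNA per cell cannot be told apart.

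The 250 bases before the RefSeq start of transcription (GRCm38.p6) are shown for the genes that fell together, Pou5f1 and Sox2, and for Nanog, which did not fall with them. The table used here holds these 3 of the 4 genes. Capitals mark matches on either strand to 4 motifs: the octamer core ATGCAAA, the SOX motif CATTGT, the composite of a SOX motif followed after 1 free base by an octamer core, which contains both of them, and the nuclear receptor half-site AGGTCA. The windows lie on the plus strand at chr17:35505782-35506031 for Pou5f1, chr3:34649745-34649994 for Sox2 and chr6:122707239-122707488 for Nanog.
Pou5f1: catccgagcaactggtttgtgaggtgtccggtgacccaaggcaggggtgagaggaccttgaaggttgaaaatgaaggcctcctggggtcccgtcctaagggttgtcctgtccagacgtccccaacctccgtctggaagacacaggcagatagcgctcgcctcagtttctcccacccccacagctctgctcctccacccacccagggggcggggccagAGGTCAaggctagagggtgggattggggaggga
Sox2: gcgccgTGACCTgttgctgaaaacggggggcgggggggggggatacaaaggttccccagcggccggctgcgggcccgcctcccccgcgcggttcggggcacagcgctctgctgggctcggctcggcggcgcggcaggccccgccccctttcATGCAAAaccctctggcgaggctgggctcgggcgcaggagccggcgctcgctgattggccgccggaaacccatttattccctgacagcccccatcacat
Nanog: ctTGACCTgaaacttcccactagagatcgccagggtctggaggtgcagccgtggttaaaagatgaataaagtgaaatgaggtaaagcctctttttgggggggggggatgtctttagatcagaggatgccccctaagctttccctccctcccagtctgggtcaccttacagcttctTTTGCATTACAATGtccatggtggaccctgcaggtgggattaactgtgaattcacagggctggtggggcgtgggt

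The Nanog window held the composite motif on its minus strand, read on the plus strand as TTTGCATTACAATG, from 75 to 62 bases before the start. This arrangement was found in 2 of 32851 windows of this length (0.00609%), and both were entries of Nanog. Only this spelling, which the Nanog window holds, was searched. The share therefore does not cover other forms of the composite, and the rarity of this spelling does not set Nanog apart. The Sox2 window held an octamer core from 99 to 93 bases before the start, a motif present in 4.12% of windows. The string CATTGT, present in 10.7% of windows, was not found in the Sox2 or Pou5f1 window. Other spellings of a SOX site were not searched, so these windows may hold one. The nuclear receptor half-site, present in 14% of windows, occurred in all 3, from 33 to 28 bases before the start in Pou5f1, 244 to 239 in Sox2 and 248 to 243 in Nanog. The windows differed in base composition, with a GC content of 62% and 8 CpG for Pou5f1, 72% and 27 CpG for Sox2, and 52% and 3 CpG for Nanog. These matches are letters in a short window: enhancers farther from the start were not searched, and binding was not measured.

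The files assign the Pou5f1, Sox2 and dimmer Sall4 probes to RefSeq transcripts, and the Nanog and brighter Sall4 probes to cDNA records. All 5 probes were well above background and unsaturated in both channels of every array. For each, the processed signal is given first. This is the scanner software's background-subtracted and dye-normalized intensity, in scanner units that compare samples within a probe and not one probe with another. The log2 ratio of butyrate over LIF after loess normalization follows, with its SD over the 4 arrays.

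Pou5f1 RNA fell in butyrate. Its probe, A_51_P202340, gave processed signals of 18685, 21937, 20030 and 16572 in LIF samples 1 to 4. In butyrate samples 1 to 4 it gave 5734, 5708, 6840 and 6285. The groups were far from overlapping, since the highest butyrate sample lay well under the lowest LIF sample. The log2 ratios on arrays 1 to 4 were −1.63, −1.85, −1.49 and −1.33, with a mean of −1.57 ± 0.22 (SD, n = 4), which is 2.98-fold lower in butyrate (limma, Benjamini-Hochberg adjusted p = 4.73e-07 over all tested probes). Pou5f1 had the widest spread of the 5 probes: its SD was larger than that of 95.9% of the tested probes. The sample-to-sample coefficient of variation was 11.7% in LIF and 8.72% in butyrate, and array 2, with the highest LIF and the lowest butyrate signal, gave the largest fall.

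Sox2 RNA also fell. Its probe, A_52_P307739, gave 16410, 18031, 17890 and 17511 in LIF and 7286, 6899, 7062 and 6884 in butyrate. Both groups were tight, with coefficients of variation of 4.20% and 2.66%, and they did not overlap. The log2 ratios were −1.11, −1.28, −1.28 and −1.28, a mean of −1.24 ± 0.09 (SD, n = 4), or 2.36-fold lower in butyrate (limma, Benjamini-Hochberg adjusted p = 1.08e-07). Arrays 2 to 4 were nearly identical, and array 1 gave the smallest fall.

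Nanog RNA did not fall with them: it was slightly higher in butyrate. Its probe, A_51_P294233, gave 13034, 11747, 11471 and 12189 in LIF and 14545, 13627, 13921 and 13647 in butyrate. The groups did not overlap, but the gap between the highest LIF and the lowest butyrate sample was narrow. The log2 ratios of 0.19, 0.25, 0.31 and 0.19 had a mean of 0.23 ± 0.05 (SD, n = 4), or 1.18-fold higher in butyrate (limma, Benjamini-Hochberg adjusted p = 0.000609). The increase passed the test and was small: 72.1% of the tested probes had a lower ratio, and the median ratio of all tested probes was 0.03.

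Sall4 RNA showed no change that passed the test with either probe. The brighter probe, A_51_P349087, stands for the gene and gave 13205, 11103, 11869 and 13681 in LIF and 13136, 12703, 13230 and 13094 in butyrate. The butyrate samples lay within the range of the LIF samples, and the spread was larger in LIF, with a coefficient of variation of 9.54% against 1.78% in butyrate. The log2 ratios of 0.03, 0.23, 0.19 and −0.03 differed in sign between arrays and had a mean of 0.10 ± 0.13 (SD, n = 4; limma, Benjamini-Hochberg adjusted p = 0.10). Without replicate 4, the array with the negative ratio, the mean was 0.15 and passed the test (limma, adjusted p = 0.0371). With each array centred on its median in place of loess the ratio was 0.67 (limma, adjusted p = 0.0121), beside a median of 0.37 for all tested probes on that scale.

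The dimmer Sall4 probe, A_51_P145260, gave 1125, 1031, 1003 and 1165 in LIF and 896, 888, 861 and 995 in butyrate. On this signal every butyrate sample was lower than every LIF sample. After loess the log2 ratios were −0.11, 0.04, −0.03 and −0.08, a mean of −0.05 ± 0.07 (SD, n = 4; limma, Benjamini-Hochberg adjusted p = 0.315). The scanner software's own ratio was −0.25 and passed the test (limma, adjusted p = 0.00281), as did the difference in the authors' value table, −0.25 (limma, adjusted p = 0.00265). With median centring the sign turned, at 0.52 (limma, adjusted p = 0.00921). The ratio of the brighter probe was above that of the dimmer one on all 4 arrays, by 0.15 ± 0.08 (SD, n = 4; exact two-sided sign-flip permutation p = 0.125, the smallest that 4 arrays allow). The direction for Sall4 therefore depended on the probe and the normalization.

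**Figure D1:**
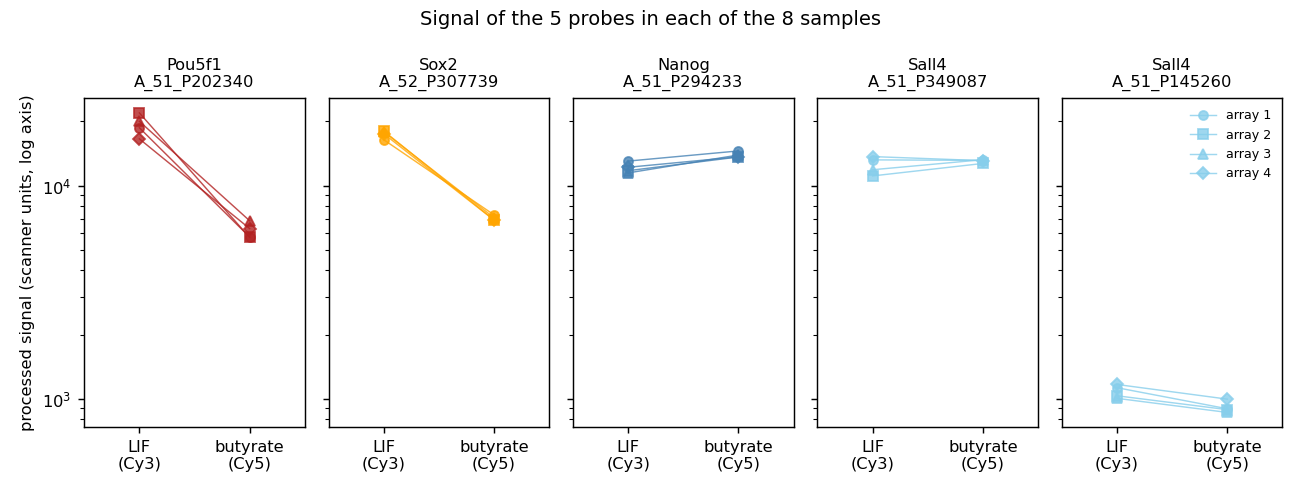
Processed signal (scanner units, log axis) of the 5 probes in the 4 LIF and 4 butyrate samples, with a line joining the 2 samples of an array. Lines for Pou5f1 and Sox2 fall steeply on every array, those for Nanog rise slightly, and those for the brighter Sall4 probe cross, with LIF samples from 11103 to 13681 and butyrate samples from 12703 to 13230.

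**Figure D2:**
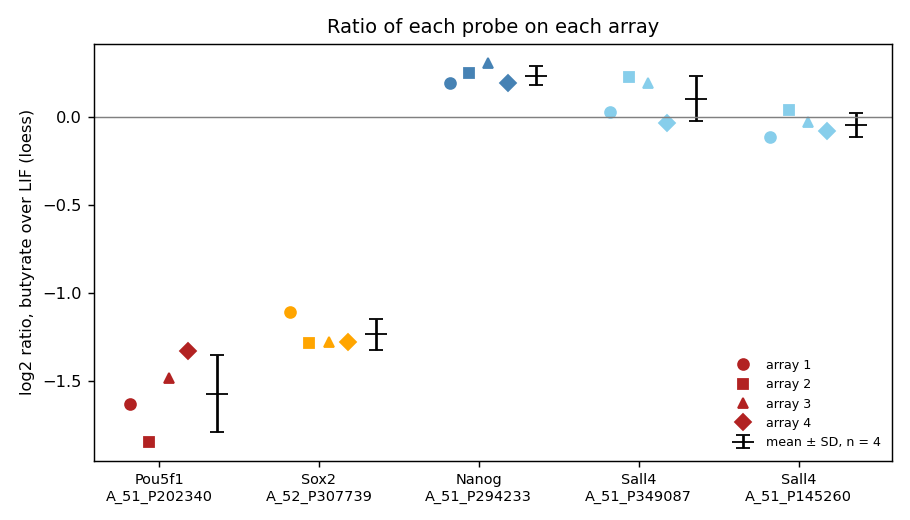
Log2 ratio of butyrate over LIF after loess for each of the 5 probes on each of 4 arrays (coloured points), with the mean and SD (black). Pou5f1 lies between −1.85 and −1.33 and Sox2 between −1.28 and −1.11, while Nanog lies between 0.19 and 0.31 and both Sall4 probes straddle 0.

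Counted together, 3 of the 5 probes passed the test at an adjusted p of 0.05, 2 lower and 1 higher in butyrate. The background share is large: 72.2% of the 25661 tested probes passed, 39.7% higher and 32.5% lower in butyrate, so that passing alone says little about these genes. The share of tested probes whose groups did not overlap was not counted, so non-overlap alone does not set these genes apart either. The size of the fall separated Pou5f1 and Sox2 from most probes. Only 0.320% of the tested probes had a lower ratio than Pou5f1 and 0.799% a lower ratio than Sox2, and 1.61% of tested probes passed with at least a 2-fold decrease. Sall4 lay near the middle, with 59.7% of the tested probes below its brighter and 40.4% below its dimmer probe.

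**Figure D3:**
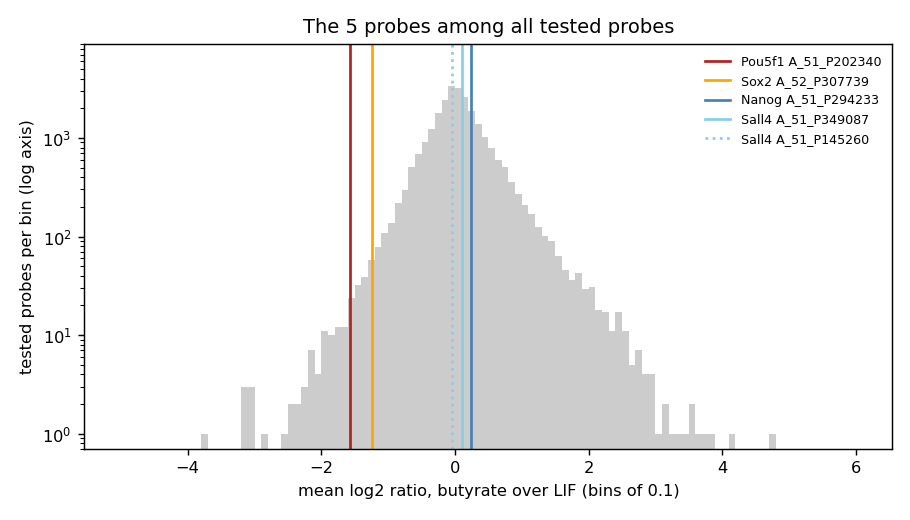
Number of tested probes (log axis) by mean log2 ratio of butyrate over LIF in bins of 0.1, with vertical lines at the 5 probes. Pou5f1 at −1.57 and Sox2 at −1.24 lie in the thin left tail, while Nanog at 0.23 and the Sall4 probes at 0.10 and −0.05 lie in the central peak.

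The genes were set against each other as differences of their ratios on the same array, which do not depend on where the array is centred. Pou5f1 and Sox2 each fell relative to Nanog on all 4 arrays, Pou5f1 by 1.81 ± 0.23 on the log2 scale, or 3.50-fold, and Sox2 by 1.47 ± 0.12, or 2.77-fold (SD, n = 4). Relative to the brighter Sall4 probe, Pou5f1 fell by 1.68 ± 0.32 and Sox2 fell by 1.34 ± 0.18. Pou5f1 fell further than Sox2 on each array, by 0.53, 0.56, 0.21 and 0.05, a mean difference of −0.34 ± 0.25 that ranged from clear on array 2 to almost none on array 4. Nanog exceeded Sall4 on each array by 0.13 ± 0.09, with 0.02 on array 2 as the smallest gap. All 6 pairs kept 1 sign on 4 of 4 arrays, so each had an exact two-sided sign-flip permutation p of 0.125, raw and Benjamini-Hochberg adjusted over the 6 pairs, the smallest p possible with 4 arrays. From lowest to highest ratio the order was Pou5f1, Sox2, Sall4, Nanog. The neighbours Pou5f1 and Sox2 in this order differed by little more than the SD of their difference, and so did Sall4 and Nanog, while the gap from Sox2 to Sall4 was several times its SD.

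The authors' own value table gave the same order on its log2 scale. Pou5f1 was 14.25 ± 0.25 in LIF and 12.58 ± 0.13 in butyrate, and Sox2 was 14.09 ± 0.10 and 12.78 ± 0.09 (SD, n = 4 samples). Nanog was 13.57 ± 0.08 and 13.76 ± 0.08, and the brighter Sall4 probe 13.61 ± 0.07 and 13.67 ± 0.06. These levels compare groups within a gene and not genes with each other.

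Genes whose 4 ratios lay nearest to each factor were found by the root mean square difference over the 4 arrays among 14375 other genes. This likeness rests on 1 contrast and 4 arrays. Nearest to Pou5f1 were Socs3, the feedback inhibitor of LIF signalling (log2 ratio −1.59 ± 0.05), Khdc3, an oocyte and early embryo gene (−1.57 ± 0.01), and Chchd10, a mitochondrial protein gene (−1.47 ± 0.08). They matched its mean but not its spread between arrays, and the nearest, Socs3, was 0.18 away. Nearest to Sox2 were Ooep, another gene of the oocyte and early embryo (−1.25 ± 0.04, distance 0.056), Prelid2 (−1.24 ± 0.08) and Kank3 (−1.25 ± 0.05). Nanog had closer matches at its small ratio, namely Hdac5, a class IIa histone deacetylase (0.22 ± 0.07, distance 0.015), Tyw1 (0.22 ± 0.05) and the kinase gene Mknk2 (0.23 ± 0.05). Sall4 was matched by Vav2 (0.12 ± 0.12), Iqgap2 (0.11 ± 0.13) and Ddias (0.09 ± 0.09), none of which passed the test (limma, Benjamini-Hochberg adjusted p = 0.0525, 0.103 and 0.103).

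Genes next to the 4 factors on the chromosome, up to 3 on each side in the RefSeq order, were examined after some of their values had been seen. The Nanog region of chromosome 6 was mixed. Dppa3, a germline and early embryo gene on one side of Nanog, was 0.19 ± 0.05 (limma, adjusted p = 0.00175), and beyond it Gdf3, a TGF-beta family ligand, fell by 1.04 ± 0.11 and Apobec1, an RNA-editing deaminase, by 0.61 ± 0.10. On the other side Slc2a3, which encodes the glucose transporter GLUT3, rose by 1.40 ± 0.12, or 2.64-fold, and Foxj2 rose by 0.60 ± 0.06. Nanog and its direct neighbours thus all had ratios above 0, in sizes that differed widely, and the next 2 genes beyond Dppa3 were lower.

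Around Pou5f1 on chromosome 17, no measured neighbour fell with it. Tcf19 was 0.14 ± 0.04, Cchcr1 −0.06 ± 0.05 (limma, adjusted p = 0.157) and Psors1c2 1.07 ± 0.15, and on the other side H2-Q10 was 1.15 ± 0.09 and H2-Q7 1.28 ± 0.08. The H2-Q genes are near-identical members of the MHC class I family, so their probes are uncertain. Around Sox2 on chromosome 3, Dnajc19 fell by 0.64 ± 0.08, Atp11b by 0.36 ± 0.10, Mccc1 by 0.22 ± 0.03 and Fxr1 by 0.16 ± 0.08, while Dcun1d1 rose by 0.38 ± 0.10, and the probe of Ccdc39 was not well above background in butyrate. With median centring the signs of Atp11b, Mccc1, Fxr1 and Cchcr1 turned. Around Sall4 on chromosome 2, Zfp64 fell by 0.51 ± 0.06 and Atp9a by 0.28 ± 0.09, both turning in sign with median centring, while Zfp217 rose by 0.47 ± 0.05, Nfatc2 was 0.09 ± 0.04 and Kcng1 −0.02 ± 0.03. C3ar1 near Nanog and Tshz2 near Sall4 were not tested, and H2-Q6 near Pou5f1 had no probe of its name.

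Related genes were grouped into lists, each gene by its brightest tested probe, beside a background of 17190 genes of which 74.3% passed, 41.3% higher and 33% lower. Of 19 tested targets of OCT4, SOX2 and NANOG, 17 fell, 2 rose and the median log2 ratio was −0.69. The largest falls were in Lefty1, an inhibitor of Nodal signalling (−2.23 ± 0.11), Tcl1, an activator of AKT (−1.97 ± 0.10), Spp1, the secreted protein osteopontin (−1.82 ± 0.03), and Esrrb, an orphan nuclear receptor of the naive state (−1.58 ± 0.05). The 2 that rose were Dppa3 (0.19 ± 0.05) and Trim28, a corepressor (0.17 ± 0.06), both in the range of Nanog itself. The Dppa5a probe, among the 17, was saturated in both channels on all 4 arrays and gives no usable ratio. With saturated spots left out 16 fell and 2 rose, with a median of −0.71. The array held no probe named Fgf4. With median centring 7 of the 19 fell and 2 rose. Their median was −0.18, beside 0.37 for all tested probes on that scale.

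Among 17 tested transcription factor partners, 9 fell, 2 rose and 6 did not pass, with a median of −0.31. The largest falls were in Nr0b1, which encodes the OCT4-binding protein DAX1 (−2.42 ± 0.04), Tfcp2l1, a LIF-responsive factor (−2.13 ± 0.19), Esrrb, and Klf4, a zinc-finger factor and reprogramming gene (−1.39 ± 0.15). These falls were of the size of that of Pou5f1 or larger, except that of Klf4. Stat3, the effector of LIF signalling, fell by 0.91 ± 0.13. Thap11, also called Ronin (0.78 ± 0.04), and Ctcf, an insulator protein (0.41 ± 0.04), rose. Both lie on chromosome 8, whose 764 measured genes had a median log2 ratio of 0.29, and the medians were 0.21 on chromosome 11 and 0.18 on chromosome 19. On the chromosomes of the 4 factors the medians were −0.05 for Pou5f1 (17), 0.01 for Sox2 (3), 0.04 for Nanog (6) and −0.02 for Sall4 (2), and the part of a chromosome-wide shift in any ratio was not tested. Klf2, among the 9, was saturated on all 4 arrays in butyrate and on 3 of 4 in LIF and gives no usable ratio. With saturated spots left out 8 fell and 2 rose, with a median of −0.17. Prdm14 had no probe of its name. With median centring 8 rose and 4 fell, and the median became 0.27, under the median of all probes on that scale.

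Cofactors split in both directions: of 24 tested genes for NuRD, BAF and other cofactors, 11 rose, 9 fell and 4 did not pass, with a median of 0.07. Gatad2a, a NuRD subunit also on chromosome 8, rose by 0.86 ± 0.08, and Dpf2, a BAF subunit on chromosome 19, by 0.58 ± 0.04. Ctbp2, a corepressor, fell by 0.62 ± 0.05 and Parp1, a poly-ADP-ribose polymerase, by 0.61 ± 0.12. L1td1 had no probe of its name. Median centring left no cofactor lower, with 15 higher, on a scale where 92.0% of all probes that passed were higher.

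Of 11 tested genes on a list of repressors and opposing factors of Pou5f1 and Nanog, 5 rose, 4 fell and 2 did not pass, with a median of 0.12. The 4 that fell include Nr5a1 (SF-1; −0.39 ± 0.24), which is known as an activator of Pou5f1 and not a repressor. Cdx2, the trophectoderm factor that opposes OCT4, rose by 2.77 ± 0.45 (SD, n = 4). Nr6a1, the germ cell nuclear factor that silences Pou5f1, rose by 1.01 ± 0.05, and Gata6, the primitive endoderm factor that opposes NANOG, by 0.68 ± 0.15. Ehmt2, the histone methyltransferase G9a, fell by 0.82 ± 0.01. Nr2f2 was not well above background in LIF, with a measured ratio 1.24-fold higher in butyrate, while Nr2f1 was not tested. Median centring, with which 92.0% of all probes that passed were higher, left none of the list lower and 7 higher.

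The other POU, SOX and SALL family genes moved in both directions: 25 of 34 were tested, 9 rose, 7 fell and 9 did not pass, with a median of −0.02. Sox11 (1.21 ± 0.09), Sox17 (1.03 ± 0.17), Pou3f1 (0.88 ± 0.07) and Sall2 (0.84 ± 0.05) rose most. In the SALL family, Sall1 fell by 0.55 ± 0.17 and Sall3 was −0.02 ± 0.06 (limma, Benjamini-Hochberg adjusted p = 0.702). The SALL genes were not tested against each other. Those not tested included Pou1f1, Pou2f3, Pou3f2, Pou3f4, Pou4f2, Sox5, Sox8 and Sox30. Sox9 was not well above background in LIF (measured 1.20-fold higher in butyrate). The scanner software's ratio gave 11 higher and 13 lower, and median centring 12 higher and 1 lower. Of all probes that passed, 46.3% were higher with the scanner software's ratio and 92.0% with median centring. The reference table lists 9 pseudogenes of Pou5f1 and Nanog, none with a probe of its name here. Whether the Pou5f1 and Nanog probes also bind their transcripts was not tested.

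Genes of the trophectoderm and primitive endoderm lineages mostly rose. A link of these rises to the ratios of the 4 factors was not tested. All 12 trophectoderm genes rose, with a median of 2.17, led by Esx1, a placental homeobox gene (3.14 ± 0.22), Cdx2 (2.77 ± 0.45), Gata2, a GATA factor of trophoblast (2.66 ± 0.31), and Krt7, an epithelial keratin (2.59 ± 0.07). Krt8 and Krt18 were saturated in butyrate and were at least 3.85-fold and 3.55-fold higher. Elf5 was not well above background in LIF, with a measured ratio 1.31-fold higher in butyrate. The smallest rises were in Tead4 (0.10) and Tfap2c (0.15). With the scanner software's ratio 10 of the 12 rose, and with 1 replicate left out 10 to 11 rose. Of 12 primitive endoderm genes, 10 rose, 1 fell and 1 did not pass, with a median of 0.50. Hnf4a (−0.15) was the one that fell, and Gata4 (0.007) did not pass. Col4a1, a basement membrane collagen (2.70 ± 0.11), Sox17, Lamb1, a laminin chain (0.81 ± 0.20), and Foxa2, a forkhead factor (0.69 ± 0.12), rose most. Afp was not well above background in LIF (measured 1.19-fold higher in butyrate).

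**Figure D4:**
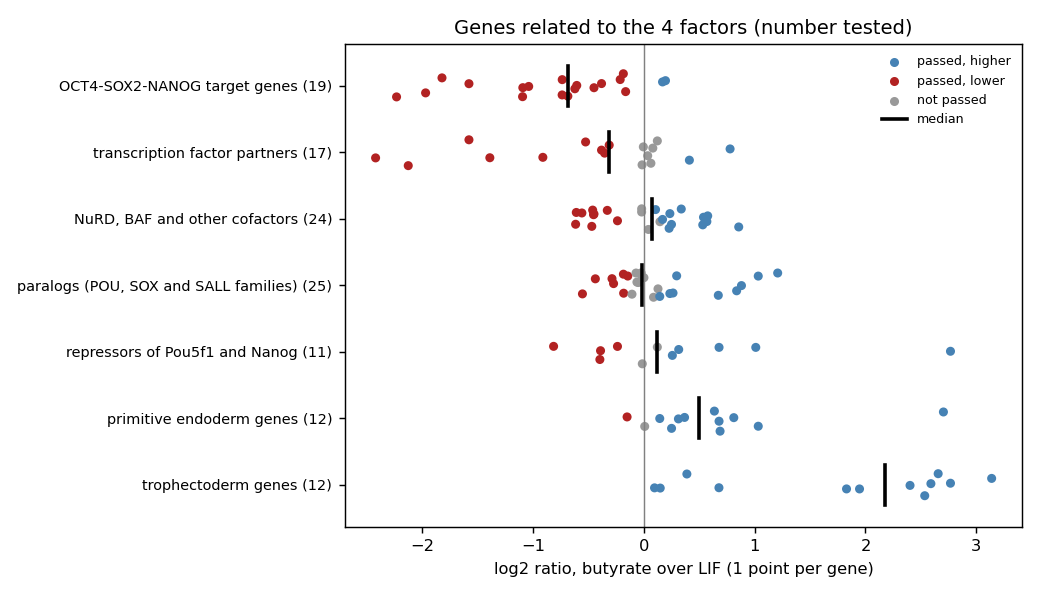
Log2 ratio of butyrate over LIF for each tested gene of 7 lists (1 point per gene, coloured by direction where the test was passed, grey otherwise), with the list median as a black bar and the number tested in parentheses. Targets of OCT4, SOX2 and NANOG lie mostly to the left, with a median of −0.69, and trophectoderm genes lie furthest to the right, with a median of 2.17.

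Markers of cell types were examined beside these results. Of the other embryonic stem cell markers, 7 were tested and 7 fell, with a median of −0.74 and, at the small end, Zfp42 (REX1) at −0.19 ± 0.10. With median centring 3 fell, with a median of −0.19 beside 0.37 for all tested probes on that scale. All 7 were well above background on all 4 arrays in both groups. The 7 include the saturated Dppa5a, and over the 6 never saturated the summed processed signal was 158802 to 183031 in LIF and 120372 to 126991 in butyrate. Of 10 fibroblast markers, 8 were tested, 6 rose and 2 fell, and their summed signal was 3386 to 4242 in LIF and 20645 to 25105 in butyrate. Col1a1, a chain of type I collagen, rose by 4.15 ± 0.16 and Postn, a matrix protein, by 3.22 ± 0.47, while Thy1 fell by 0.18 ± 0.06 and Twist1 by 0.24 ± 0.07. Neither of these 2 decreases passed with median centring. Dcn was not well above background in LIF (measured 1.07-fold higher in butyrate), and Lum and Fap were not tested. Of the blood cell markers, 4 were tested, 3 rose and 1 did not pass, with summed signals of 1978 to 2182 in LIF and 2901 to 3660 in butyrate. Lyz2, among those that rose, was not well above background in LIF (measured 1.16-fold higher in butyrate). Ptprc, which defines blood cells, was not tested. Of 6 neural markers, 2 rose, 3 fell and 1 did not pass, with a median of −0.33. Their summed signals were 9504 to 12055 in LIF and 13890 to 16135 in butyrate. Each sum mostly follows its brightest probes. For the neural list these were Tubb3 (0.22 ± 0.06) and Nes (1.07 ± 0.13), the 2 that rose. The part of other cell types in the ratios of Pou5f1, Sox2, Nanog and Sall4 was not tested.

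The ratios of the 4 genes were recomputed under 16 other settings that could change a ratio or its p. Pou5f1 stayed lower and Sox2 stayed lower in butyrate under all 16, from −1.67 to −1.01 for Pou5f1 and from −1.31 to −0.66 for Sox2, and both passed each time. Nanog stayed higher and passed under all 16, from 0.19 to 0.79. The Sall4 ratio was above 0 under all 16, from 0.06 to 0.67, and passed under 2 of them. Median centring without loess gave the values nearest 0 for Pou5f1 (−1.01) and Sox2 (−0.66) and the highest for Nanog (0.79). On that scale 92.0% of the probes that passed were higher in butyrate, against 55.0% after loess and 44.9% in the authors' value table.

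**Figure D5:**
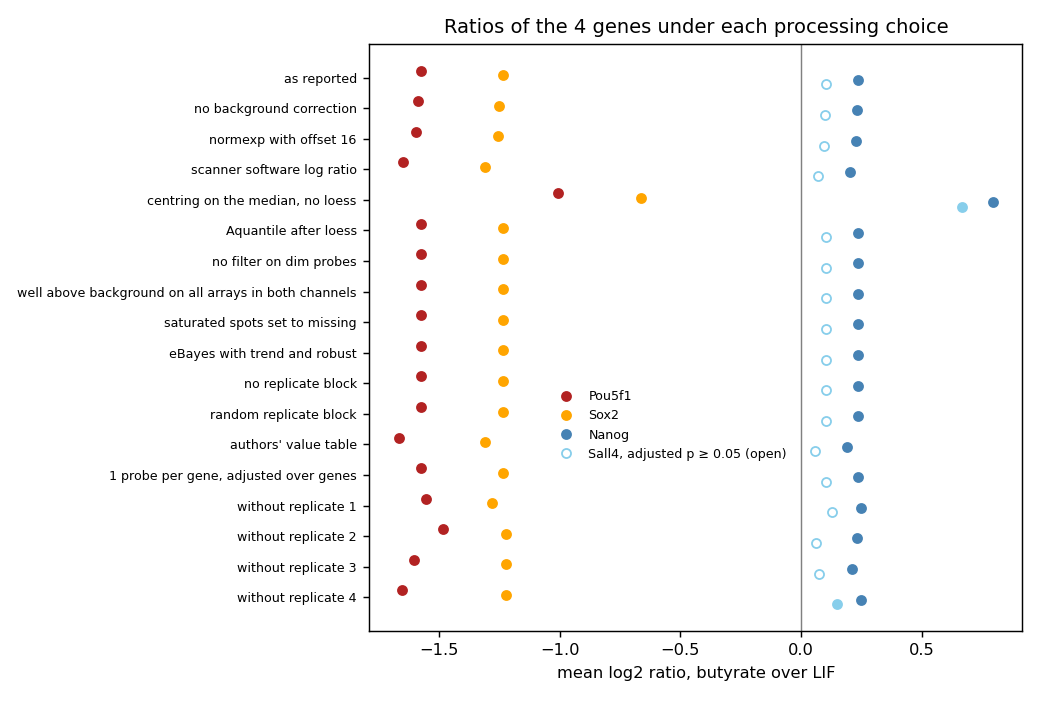
Mean log2 ratio of butyrate over LIF of the 4 genes as reported and under each of 17 other settings (Aquantile leaves ratios as they are by construction), with filled points where the adjusted p was under 0.05. The points form vertical columns near −1.57, −1.24, 0.10 and 0.23 except with median centring, where all 4 genes shift to the right.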

How the data were processed

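RNA of 4 LIF and 4 butyrate samples was measured on 4 Agilent 2-colour arrays. Agilent Feature Extraction 9.1 is the software named in the submitters' processing notes. The deposited scanner files give intensity per spot and channel and, per the file headers, a processed signal and a log10 ratio of Cy5 over Cy3. The authors' value table holds log2 values per sample, and the sources used here do not name the tool behind it.

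With limma 3.58.1 in R 4.3.3, mean signals were background-corrected (normexp, offset 50) and normalized by loess with control spots at weight 0. Over the arrays 14 outlier spots were set to missing, saturated spots were kept and spots of a probe were averaged. A probe was tested if 3 or more of its 4 arrays were well above background in either channel (25661 of 41174). lmFit and eBayes tested the 4 log2 ratios against 0, with Benjamini-Hochberg adjustment over all tested probes. The offset understates the fold of dim probes. "Passed" means an adjusted p under 0.05, and "rose" and "fell" refer to butyrate against LIF. Where a probe was saturated in a group, a lower bound was set from channel means after loess and Aquantile, open to dye bias. A bound set for probes not well above background in LIF equalled their measured fold. That fold is given instead, near the floor and open to dye bias.

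The ratio takes the shared array out as the replicate block. As a check, the deviations from the group mean of 2 samples with 1 number correlated across genes at 0.16 to 0.31, and those of other pairs at −0.21 to 0.10. The pairing comes from the shared array. The members and all lists were chosen with earlier results of these data known, so no list is independent evidence. Named genes are the 4 factors, the 3 nearest patterns to each, from each list the 4 passing genes with the largest ratios, and members without a measured level. Chromosome neighbours and other listed genes were chosen after seeing values. Alternatives changed background correction, normalization, filters, saturated spots, variance model, block, probes, source of values and replicates. The steps were tested on simulated data. Figures were drawn with matplotlib 3.10.9.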

Additional observations from a re-analysis of the deposited data

Results flagged for a closer look

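In 92 groups of 4 values, 1 value far from the other 3 was looked for, and chance marks about 1 in 20 such groups. These were ratios of the 5 probes and of 71 other genes, signals of the 5 probes per group, and differences between the 4 factors. The 71 were the nearest patterns, the measured chromosome neighbours and the passing genes with the largest ratios in each list. The Sox2 ratio on array 1, −1.11, stood apart from the other 3 arrays, which all gave −1.28. Ehmt2 gave −0.79 on array 3 against −0.82 on the others, a gap that is small in size. Mknk2, a gene with a pattern near that of Nanog, gave 0.30 on array 3 against 0.20 to 0.21. The fibroblast marker Postn gave 2.51 on array 2 against 3.43 to 3.48. Without array 1 the Sox2 ratio was −1.28.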

How the results depend on the processing

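Pou5f1, Sox2 and Nanog kept their direction and passed under 16 alternatives. Another, Aquantile after loess, leaves ratios unchanged by construction and is not counted. With median centring in place of loess, Sall4 moved to 0.67 and passed, its dimmer probe turned to 0.52, and Cchcr1 (0.53), Fxr1 (0.34), Atp11b (0.22), Mccc1 (0.37), Atp9a (0.32) and Zfp64 (0.051) turned from below to above 0. That scale moves the median of all tested probes from 0.03 to 0.37, and the cause of the single changes was not tested. Leaving out 1 replicate at a time gave −1.66 to −1.48 for Pou5f1, −1.28 to −1.22 for Sox2, 0.21 to 0.25 for Nanog and 0.063 to 0.15 for Sall4, which passed without replicate 4. The fit with no replicate block called 18038 probes and the fit with a random replicate block 18674, against 18538, and neither changed the call of any of the 4 genes. Over all alternatives 12889 to 20056 probes passed, the lowest being the fit with 1 probe per gene, which tests fewer features. Of the values of the 71 genes checked above under the alternatives, 1096 were counted as unchanged, 12 came to pass and 20 no longer passed. Another 6 turned in sign where the main or the alternative value passed. A turn in sign where neither passed was counted as unchanged. All 5 probes were well above background, the dimmer Sall4 probe by the smallest margin (lowest signal 6.96 times its background in LIF). With 4 arrays no pair of genes could pass the exact test.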
